A study of Brassica napus with 12 samples.

Results

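Of 51928 merged H3K4me3 regions in the oilseed rape (Brassica napus) hybrid HZ62, 888 had a peak in both silique and both seedling libraries and in neither flower bud library, and lay off the H3K27me3 regions of flower bud. These 888 regions (1.71% of all) are described here. They were chosen by presence of a peak: peaks of the 6 H3K4me3 lists were merged where they overlapped by 1 bp, 39714 merged regions had a peak in both silique and both seedling libraries, and 1126 of those (2.17% of all merged regions) had none in either flower bud list. Of the 1126, 238 overlapped an H3K27me3 region that both flower bud libraries had and were set aside. Since the rule used the flower bud lists, the absence itself is a description and not a finding.

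The study measured both marks by chromatin immunoprecipitation and sequencing (ChIP-seq) in flower buds under 2 mm, siliques (seed pods) of 3 to 5 cm and seedlings of 2 weeks, with 2 libraries for each mark and tissue and 12 in all. All came from HZ62, labelled WT, grown under 16 h of light at 22 °C and 8 h of dark at 18 °C, and about 1 g of tissue went into each library. The titles call the seedling libraries leaf, and the tissue label of flower bud reads flower bug. The labels do not tell whether both libraries of a group stem from different plants, so their spread may be technical. The H3K4me3 libraries held 9707589 and 10195899 fragments in flower bud, 14339594 and 11209471 in silique, and 8609548 and 10914885 in seedling. Positions are 1-based and use the sequence numbers in the files, whose build is known only by those identifiers. No annotation of that build was used, so the regions carry no gene names and the tissues were not checked against marker genes.

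H3K4me3, trimethylation of lysine 4 on histone H3, is laid down around the starts of genes that are transcribed or poised for transcription, by methyltransferases of the Trithorax group. H3K27me3 is the mark of Polycomb repressive complex 2, which in plants keeps developmental genes silent in the tissues where they are not used. A whole tissue mixes many cell types, and in such bulk samples a mark in fewer cells and less mark per cell cannot be told apart. A region without a peak is one where the peak caller found none past its q cutoff of 1e-05 at that depth.

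The regions missing from flower bud were mostly weak in the tissues that had them, and more so in silique. The median fold enrichment, the authors' ratio of a peak's summit coverage to the local control, was 5.90 and 7.22 in the silique libraries, and 9.12 and 9.53 in the seedling libraries. Over all 39714 regions of the 4 libraries it was 15.4 and 18.2 in silique, and 17.7 and 18.4 in seedling. To set libraries side by side, each region's highest summit pileup (the number of fragments over the summit) was divided by its median, in the same library, over the 37889 regions with a peak in all 6 libraries, so that 1 is a typical shared region. On this scale the 888 regions had a median level of 0.370 and 0.375 in silique, and 0.487 and 0.495 in seedling. All 4 library medians lay well under those over all regions of the 4 libraries, 0.964 and 0.962 in silique, and 0.974 and 0.970 in seedling. Levels under 1 were found at 871 and 874 of the 888 in silique (98.1% and 98.4%), and at 807 and 812 in seedling (90.9% and 91.4%). Over all regions of the 4 libraries these shares were 52.1% and 52.1% in silique, and 51.5% and 51.6% in seedling. Median peak widths were 576 and 497 bp in silique, and 557 and 615.5 bp in seedling, against 884 and 726.5 bp in silique, and 680 and 725 bp in seedling over all regions of the 4 libraries.

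**Figure D1:**
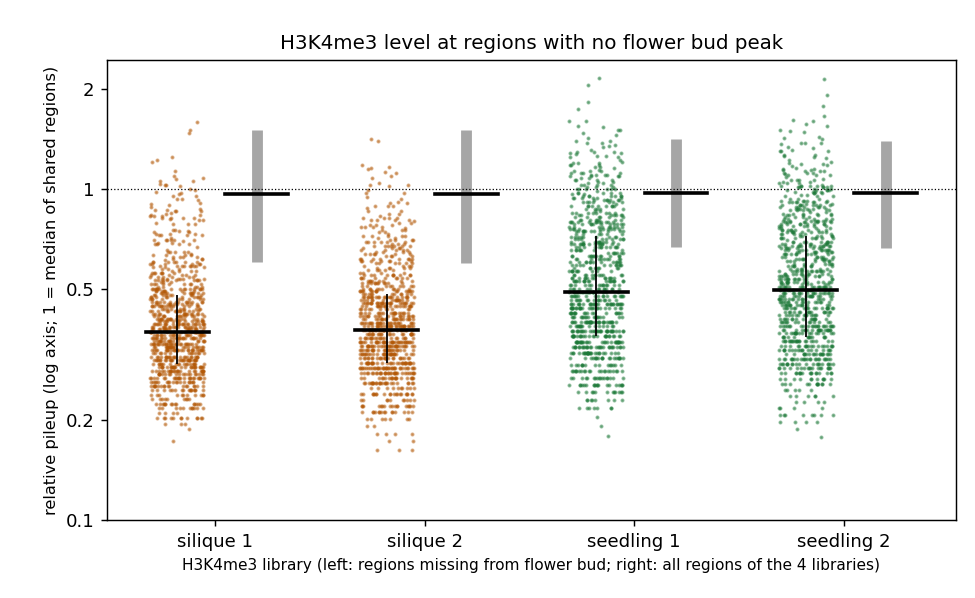
Relative pileup (log axis, 1 is the median of regions in all 6 libraries) of the 888 regions missing from flower bud, 1 point per region and library, with median and quartiles as black lines; beside them the median and quartiles (grey) of all 39714 regions of the 4 libraries. The medians of the 888 are 0.370 and 0.375 in silique, and 0.487 and 0.495 in seedling, all below the grey bars.

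This weakness bears on how the absence from flower bud can be read. With pileup scaled by fragments to the depth of flower bud library 1, the lowest of a region's 4 values had a median of 28.6 over the 888 regions and 71.01 over all regions of the 4 libraries. The flower bud 1 list itself had a lowest pileup of 16, a 5th percentile of 31 and a median of 94. Thus 882 of the 888 (99.3%) reached the lowest pileup that gave a peak in flower bud 1, and 358 (40.3%) reached its 5th percentile. Its 25th percentile was reached by 39 (4.39%) and its median by 2 (0.225%). Over all regions of the 4 libraries the shares were 99.96%, 89.5%, 62.3% and 32.4%. For flower bud library 2 the counts were 874, 358, 41 and 3, against shares over all regions of 99.8%, 89.5%, 64.2% and 35.4%. These counts rest on the weakest of 4 values, and a region short of a mark could be strong in the other tissue. At 58 of the 888 (6.53%) all 4 scaled values lay under the 5th percentile of flower bud 1, and at 83 (9.35%) the highest of the 4 reached its median. For flower bud 2 these counts were 58 and 106, and no share over all regions is set beside them. Where all 4 values were that low, a full loss and a small decrease cannot be told apart. The limit may reach beyond those 58, which was not tested. At regions with a peak in only 1 flower bud library that peak had a median level of 0.308 in library 1 and 0.305 in library 2. The medians at the 888 were 0.370 and 0.375 in silique, and 0.487 and 0.495 in seedling. How large a decrease would remove a peak was not tested. No list held a peak shorter than its library's fragment size in the file headers, which was 304 and 310 bp for the flower bud libraries, 332 and 248 bp for those of silique, and 236 and 246 bp for those of seedling. In 713 of the 888 regions (80.3%) all 4 peaks were at least 310 bp wide, and in the rest at least 1 was narrower.

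**Figure D2:**
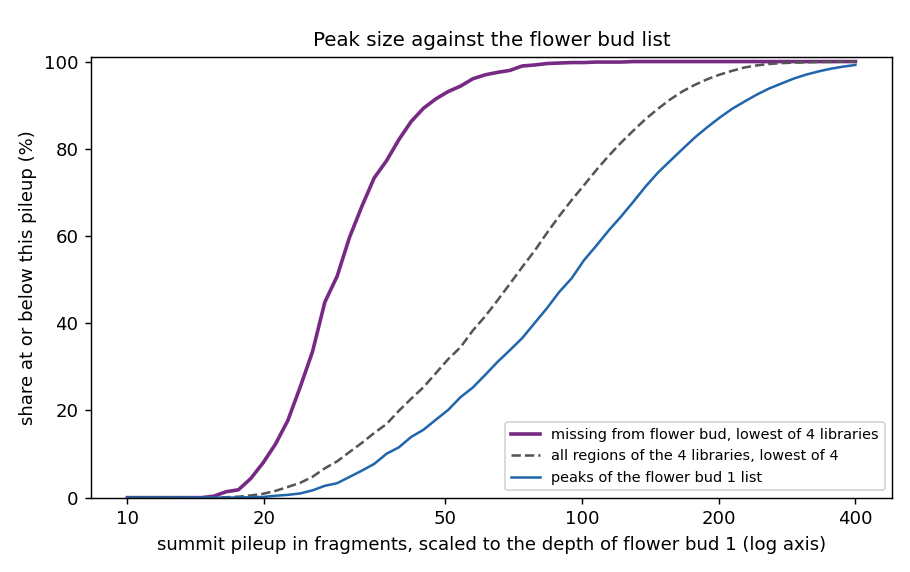
Cumulative share of regions by summit pileup in fragments, scaled to the depth of flower bud library 1 (log axis), for the lowest of the 4 silique and seedling values of the 888 regions (purple), for the same value over all 39714 regions (dashed) and for the peaks of the flower bud 1 list (blue). The purple curve lies to the left, with a median of 28.6 against 71.01 (dashed) and 94 (blue).

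A minority was near or above the level of a typical shared region and still had no flower bud peak. The 6 strongest are ranked by their lowest fold, and not all of them reached a level of 1. The region with the highest lowest fold lay on sequence 5 from 7102179 to 7103158, where the fold was 23.9 and 25.2 in silique, and 24.99 and 26.0 in seedling. Its level was 1.07 and 0.971 in silique, and 1.03 and 1.01 in seedling, so that the 2 tissues overlapped. Next came a region on sequence 1 (15086947 to 15088243), where folds were 21.5 and 26.96 in silique, and 26.2 and 20.7 in seedling. On sequence 13 from 62179326 to 62180568 the folds were 19.8 and 19.4 in silique, and 27.5 and 26.9 in seedling, the seedling values lying above both silique values. That region had the highest levels of the 6 strongest, 1.59 and 1.39 in silique, and 1.74 and 1.65 in seedling, and its lowest pileup scaled to the depth of flower bud 1 was 126, above the median of 94 in that list.

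The other 3 of the 6 strongest had lowest folds of 17.2 to 17.6. On sequence 17 (30260333 to 30261734) the folds were 17.6 and 21.8 in silique, and 24.6 and 22.6 in seedling. On sequence 5 (25459382 to 25460950) they were 18.6 and 18.7 in silique, and 19.3 and 17.3 in seedling. A wider region on sequence 3 (24502124 to 24504839, 2716 bp) had folds of 17.2 and 19.2 in silique, and 19.54 and 19.1 in seedling. Levels on sequence 17 were 1.03 and 1.08 in silique, and 1.21 and 1.04 in seedling. On sequence 5 they were 1.04 and 0.856 in silique, and 0.923 and 0.782 in seedling. On sequence 3 all were under 1, at 0.783 and 0.740 in silique, and 0.808 and 0.752 in seedling. Silique and seedling levels overlapped at all 3, so that of the 6 strongest only the region on sequence 13 separated the tissues by level. By fold the region on sequence 17 did so too, with both seedling values above both silique values. Only 1 other region besides that on sequence 13 reached the median pileup of both flower bud lists at its lowest. It lay on sequence 7 from 11251649 to 11253051, with levels of 1.22 and 1.18 in silique, and 1.60 and 1.50 in seedling, and is named because it was 1 of 2, after its values were seen.

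At the edges of the rule, the 2 weakest regions had lowest folds of 2.69 (sequence 12 from 7344185 to 7344794) and 2.80 (sequence 2 from 27592637 to 27593408), both in silique library 1. Just outside it, 699 regions had a peak in both silique, both seedling and exactly 1 flower bud library. The strongest of these lay on sequence 5 from 5132875 to 5135133, with levels of 0.288 in flower bud 1, 1.61 and 1.62 in silique, and 1.55 and 1.27 in seedling, and no peak in flower bud 2. The next lay on sequence 11 from 43318031 to 43319765, with levels of 0.200 in flower bud 2, 1.26 and 1.20 in silique, and 1.53 and 1.49 in seedling, and no peak in flower bud 1. In the library that had them, the flower bud peaks of these 699 regions had a median level of 0.308 (430 peaks in library 1) and 0.305 (269 peaks in library 2).

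The 888 regions were short, with a few wide exceptions. Their merged width had a median of 758 bp, against 937 bp over all regions of the 4 libraries, where up to 6 rather than 4 lists were joined. Of the 888, 118 (13.3%) were under 500 bp, against 715 of all 39714 regions of the 4 libraries. Another 542 (61.0%) were 500 bp or more but under 1000 bp, against 56.0% of all regions. From 1000 bp to under 2000 bp there were 210 (23.6%), against 38.9% of all regions. At 2000 bp or more there were 18 (2.03%), against 3.25%. Set against all regions, the excess was thus largest under 500 bp. Wider regions had higher levels: the median of the mean level of the 4 libraries was 0.357, 0.442, 0.573 and 0.731 in these classes. Across the 888 regions Spearman's rho between that level and width was 0.498, a description over regions that share their libraries.

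The widest lay on sequence 8 from 19867139 to 19870291 (3153 bp). Its peaks were 3055 and 3040 bp wide in silique, and 2730 and 2710 bp in seedling, with folds of 16.4 and 18.2 in silique, and 16.2 and 17.6 in seedling. The next, of 3127 bp, lay on sequence 17 (30639254 to 30642380), and another, of 2996 bp, on sequence 7 (14612147 to 14615142). These 2 were alike in several measures: levels were 0.870 and 0.913 in silique, and 0.769 and 0.663 in seedling on sequence 17, and 0.928 and 0.769 in silique, and 0.705 and 0.663 in seedling on sequence 7. The nearest flower bud peak was 872 bp away on sequence 17 and 830 bp away on sequence 7. Sequences 7 and 17 take the places of chromosomes A7 and C7 in the order of the files, and whether the regions are homeologous copies was not tested. All 3 were silique-higher, meaning that both silique levels exceeded both seedling levels.

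The rule used presence in silique and seedling but not the size of the peaks, so that the level in one could be set against the other. Most of the 888 were higher in seedling. Both silique levels lay above both seedling levels at 154 regions (17.3%), where the share over all 39714 regions of the 4 libraries was 40.2%, and both seedling levels lay above both silique levels at 535 (60.2%), where it was 33.1%. At the rest the tissues overlapped. The sets were not matched for level, and the 888 were weaker than all regions of the 4 libraries. The median log2 ratio of silique over seedling level was -0.37 over the 888 and 0.05 over all regions of the 4 libraries. Over the 4 pairs of 1 silique and 1 seedling library it ran from -0.40 to -0.35 (SD 0.019, n = 4 pairs that share libraries). Silique library 2 and seedling library 2, whose fragment sizes were 248 and 246 bp, gave -0.38. This is 1 pair, and the part of fragment size in the ratio was not tested. At 10 of the 888 regions the seedling level was at least 4 times the silique level and at 158 it was 2 to 4 times, while silique was 2 to 4 times higher at 29 and more than that at 0. Over all regions of the 4 libraries the shares of these classes were 0.264%, 4.91%, 3.06% and 0.154%, against 1.13%, 17.8%, 3.27% and 0% of the 888.

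**Figure D3:**
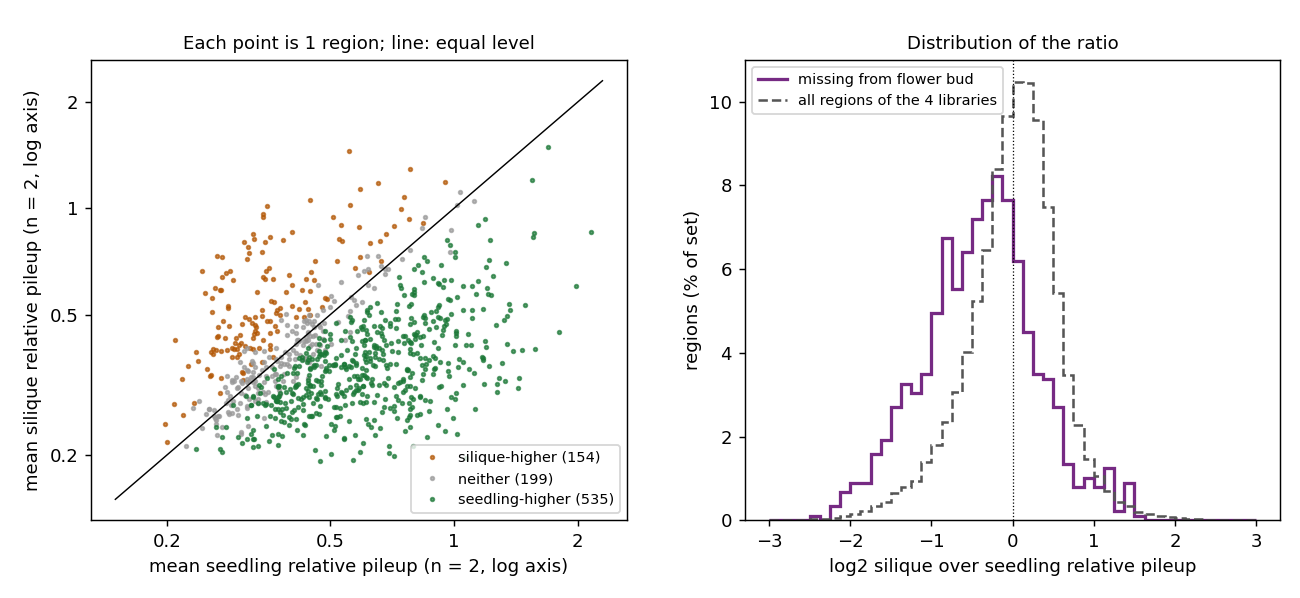
Left: mean relative pileup in silique against that in seedling (n = 2 libraries each, log axes) for the 888 regions missing from flower bud, coloured by whether both silique levels exceeded both seedling levels (154), neither held (the rest) or both seedling levels exceeded both silique levels (535). Right: share of regions by log2 silique over seedling level for the 888 (solid, median -0.37) and for all 39714 regions of the 4 libraries (dashed, median 0.05).

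The difference between the 888 and all regions grew with width. Under 500 bp the median log2 silique over seedling level was -0.23 for the 888 and -0.22 for all regions of the 4 libraries. From 500 bp to under 1000 bp it was -0.40 for the 888 and -0.05 for all, from 1000 bp to under 2000 bp -0.50 and 0.21, and at 2000 bp or more -0.98 (18 regions) and 0.31. The narrowest regions missing from flower bud thus leaned toward seedling as much as other narrow regions did, and the wider ones more than others of their width. The classes were matched for width and not for level. Over the 37889 regions of all 6 libraries the lower quartile of level was 0.638 and 0.635 in silique, and 0.692 and 0.693 in seedling. The upper quartile was 1.54 and 1.55 in silique, and 1.44 and 1.42 in seedling. Across the 888, Spearman's rho between mean level and the log2 ratio was -0.35. Whether other regions as weak as the 888 lean alike was not tested.

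Levels repeated well within a tissue and poorly between them. Across the 888 regions Spearman's rho of the levels was 0.813 between the silique libraries and 0.909 between the seedling libraries, and 0.214 to 0.277 between a silique and a seedling library. Over all regions of the 4 libraries the values were 0.972, 0.961 and 0.765 to 0.785. These are correlations across regions that share libraries, over a narrower range of levels for the 888, and carry no test.

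The region most unequal toward silique lay on sequence 10 (4343935 to 4345560), with levels of 1.00 and 1.03 in silique, and 0.295 and 0.406 in seedling (log2 ratio 1.53). It had the strength of a typical shared region in silique and was weak in seedling. Its peaks were 1626 and 1542 bp wide in silique, and 355 and 494 bp in seedling. On sequence 19 (57371791 to 57373005) the levels were 1.03 and 0.904 in silique, and 0.359 and 0.327 in seedling (1.50). On sequence 8 (22194666 to 22196231) they were 0.703 and 0.760 in silique, and 0.244 and 0.287 in seedling (1.46). In both, too, the silique peaks were wider than the seedling peaks.

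The region most unequal toward seedling lay on sequence 4 (20903302 to 20904531), with levels of 0.210 and 0.183 in silique, and 1.12 and 1.03 in seedling (log2 ratio -2.45). Its peaks were 346 and 252 bp wide in silique, and 1127 and 1230 bp in seedling, so that it was narrow as well as weak in silique. On sequence 13 (23330049 to 23331204) the levels were 0.275 and 0.346 in silique, and 1.37 and 1.50 in seedling (-2.21). On sequence 2 (5925335 to 5926374) they were 0.246 and 0.212 in silique, and 1.00 and 1.04 in seedling (-2.16). At these regions, too, the peaks were wider in seedling. These 6 regions were chosen by this ratio among those called silique-higher or seedling-higher, so that the tissues could not overlap at them. None of the 6 met the rule when a library's peaks had to cover 50% of the merged region.

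The lean toward seedling was also present in sets chosen by a near rule. It was -0.49 (median log2 silique over seedling) at the 238 regions set aside under flower bud H3K27me3, where 46 were silique-higher and 149 seedling-higher, and -0.26 at the 699 regions with a peak in 1 flower bud library, where 140 were silique-higher and 363 seedling-higher. At the 37889 regions of all 6 libraries it was 0.06. The same rule with silique as the tissue without a peak found 1026 regions, and there the median log2 level of flower bud over seedling was -0.25. Flower bud was higher at 18.6% and seedling at 52.4%, against 39.2% and 29.9% over the 39775 regions in both libraries of these tissues. With seedling as the tissue without a peak the rule found 528 regions, and the median log2 level of silique over flower bud was 0.01. Silique was higher at 33.5% and flower bud at 32.4%, against 35.6% and 31.9% over the 39024 regions in both libraries of these tissues. These comparisons share libraries, so they are given side by side only. The seedling libraries carry lower library numbers, in a range of their own, than those of flower bud and silique, so that for seedling the tissue and the library series cannot be told apart.

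Almost no H3K27me3 was called at the 888 regions in any tissue. No region overlapped an H3K27me3 region of both libraries of flower bud (by the rule), of silique or of seedling. Single lists overlapped 11 and 18 of the 888 in flower bud, 6 and 0 in silique, and 2 and 0 in seedling, and 857 (96.5%) overlapped none of the 6 lists. Over all 39714 regions of the 4 libraries the shares under H3K27me3 of both libraries were 2.98% in flower bud, 1.30% in silique and 1.45% in seedling. The low values in silique and seedling were largely fixed by the rule, because 98.8% of the 10981 H3K27me3 regions of silique and 94.9% of the 14232 of seedling were also in both flower bud libraries. The 238 regions set aside were 21.1% of the 1126 with no flower bud peak, and 83 of them had H3K27me3 in silique and 100 in seedling. With silique as the tissue without H3K4me3, 95 of 1121 regions (8.47%) lay under its own H3K27me3, and with seedling 132 of 660 (20%). The H3K27me3 libraries held 11513204 and 10929797 fragments in flower bud, 7441109 and 2654588 in silique, and 3647059 and 3479885 in seedling. The part of depth in these shares was not tested. Although they were off flower bud H3K27me3, 102 of the 888 (11.5%) lay within 2 kb of it, against 8.73% of the 38530 regions of the 4 libraries that were likewise off it.

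Most of the 888 regions had none of the others next to them. They formed 825 single regions, 30 runs of 2 and 1 run of 3 with no other H3K4me3 region between. Of their 1775 neighbours on either side, 64 belonged to the 888. Of the 79374 neighbours of all regions of the 4 libraries 1337 did, which is a smaller share. The run of 3 lay on sequence 2 from 27592637 to 27599153 (6517 bp in all), and its 3 members were all seedling-higher. Its strongest region, from 27597915 to 27599153, had levels of 0.326 and 0.385 in silique, and 1.13 and 0.921 in seedling. The shortest runs of 2 spanned 2086 bp on sequence 12 (5638466 to 5640551), where both members were seedling-higher, and 2660 bp on sequence 8 (219180 to 221839), where the first was silique-higher and the tissues overlapped at the other.

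The nearest H3K4me3 region of any library was a median of 3757.5 bp away from the 888, and 3531 bp over all regions of the 4 libraries. The nearest flower bud peak was a median of 4750.5 bp away; it lay within 2 kb at 19.6% of the 888 and beyond 20 kb at 11.1%. The region farthest from one lay on sequence 14 (30437762 to 30438229), at 154872 bp. It was followed by regions on sequence 11 (42140995 to 42141431), at 139425 bp, and sequence 12 (58278550 to 58278961), at 120501 bp. All 3 were under 500 bp wide and weak, with levels of 0.254 to 0.596 in silique, and 0.297 to 0.679 in seedling.

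Of the 1775 neighbours of the 888 on either side, 1231 (69.4%) had a peak in all 6 libraries, against 73.9% of the neighbours of all regions of the 4 libraries, and 432 of the 888 (48.6%) lay between 2 such neighbours. At the 1231 the median log2 level of flower bud over the mean of the 4 silique and seedling libraries was -0.0091 (quartiles -0.22 and 0.21), against 0.0083 (quartiles -0.20 and 0.21) at the neighbours of all regions of the 4 libraries. Levels are scaled to the median of such shared regions, and neighbours without a peak in every library were left out, so that a value near 0 is largely set by the construction. Within 1 kb, 53 of 88 neighbours (60.2%) had a peak in all 6 libraries, against 2933 of 3941 (74.4%) for all regions of the 4 libraries.

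The 888 were spread over all 19 numbered sequences, of which the first 10 were taken as the A and the other 9 as the C chromosomes. This assignment rests on order and extent: over the 19, the last peak of a sequence and the last gene of the chromosome in the same place of the Da-Ae assembly were correlated (Pearson r = 0.994, Spearman's rho = 0.991), of which no coordinate is used here. On the sequences assigned to A lay 439 (49.4%) of the 888, against 46.6% of all regions of the 4 libraries, with 43.7% of the 1026 regions missing from silique and 51.3% of the 528 missing from seedling. As a share of the regions of the 4 libraries, the 888 made up 2.37% on A and 2.12% on C. By sequence this share ran from 1.87 to 3.29% within A and from 1.46 to 2.67% within C, so that the subgenomes overlapped. It was highest on sequence 8 (49 of 1490 regions) and lowest on sequence 19 (39 of 2666). The lean toward seedling was close on both, with a median log2 silique over seedling level of -0.36 on A and -0.38 on C. Seedling-higher regions outnumbered silique-higher ones on each of the 19 sequences. All sequences share the same 4 libraries, so they do not repeat the comparison, and no value over all regions by sequence or subgenome is set beside these.

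**Figure D4:**
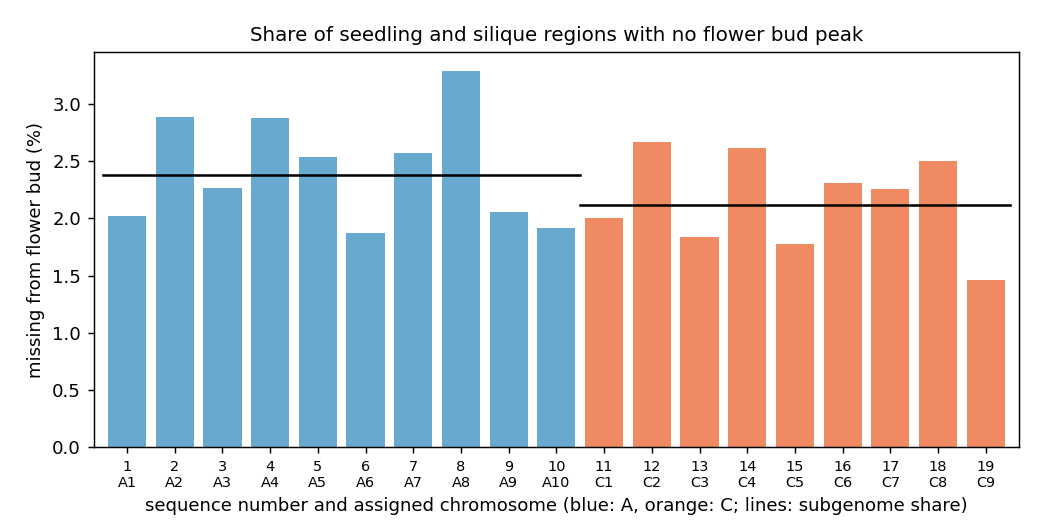
Share of the regions with a peak in both silique and both seedling libraries that had none in flower bud and lay off its H3K27me3, for each numbered sequence (blue assigned to A, orange to C), with lines at the subgenome shares of 2.37% and 2.12%. Bars run from 1.87 to 3.29% in A and from 1.46 to 2.67% in C and overlap.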

How the data were processed

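Per the file headers, the authors called narrow peaks in each library on its own with MACS 2.2.7.1, from paired-end fragments without duplicates, at a q cutoff of 1e-05 and against 1 merged control. BWA, SAMtools, GATK and MACS2 are named in the submitters' processing notes; the genome build is not given in the sources used here. As deposited, pileup is a signal (fragment coverage at a peak's summit), fold enrichment is the authors' ratio of that pileup to the local control, and the p-value and q-value of a peak are given as −log10. Peak widths, another measure, are deposited in bp.

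Peaks of the 6 lists of a mark were merged where they shared 1 bp or more. A library's level at a region was its highest pileup there over the median of that value, in the same library, over regions of all 6 H3K4me3 libraries. A region was silique-higher if both silique levels exceeded both seedling levels, and seedling-higher the other way. No test was run: 2 libraries against 2 cannot give an exact two-sided p under 0.333, and regions are not replicates. Named were the strongest and widest regions, those most unequal between silique and seedling, the longest runs, those farthest from a bud peak, and those just inside and outside the rule. No region qualified for the planned naming by H3K27me3. Regions and rules were chosen with earlier results of these data known. Alternatives were −log10 q of 10 or more, 50% coverage, equal peak numbers (43010 for H3K4me3, 13579 for H3K27me3), other H3K27me3 exclusions, a 500 bp margin, other level scales, each library left out and, chosen after the data were seen, 1 minimum peak width (332 bp). The counting was tested on simulated lists. Python 3.11.15, numpy 2.4.6, pandas 2.3.3 and scipy 1.17.1 were used.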

Additional observations from a re-analysis of the deposited data

How the results depend on the processing

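The number of regions missing from flower bud stayed within 1.5 times of 888 under every alternative run but 1, and the median log2 silique over seedling level stayed below 0 in all others. The exception asked that the depth-scaled pileup reach the median of each flower bud list, which left 2 regions, and the median level was not computed for it. Leaving out single libraries gave 870 to 1280 regions and a median log2 level of -0.44 to -0.28, under the looser rule of 1 library for that tissue. Silique-higher regions ran from 148 (of 870) to 281 (of 1004, without seedling H3K4me3 replicate 1). Seedling-higher ones ran from 525 (of 870) to 819 (of 1180, without silique H3K4me3 replicate 1). With 1 library in a tissue either call is easier to meet, and no share over all regions is set beside these counts. Leaving out single libraries also gave shares with H3K27me3 of 0 to 0.225% in seedling and 0 to 0.676% in silique, and a share on A of 48.1 to 49.7%. The median log2 level was -0.33 with 50% coverage of the region, -0.33 from pileup divided by fragments and -0.47 with 1 minimum peak width of 332 bp. With equal numbers of peaks it was -0.63, where 58 of 663 regions were silique-higher and the longer seedling lists were shortened most. The files do not show whether pileup of silique library 1, deeper than the control, was scaled down before deposit; only that level and the depth-scaled pileup depend on this. With no exclusion of flower bud H3K27me3, 8.88% of regions had H3K27me3 in seedling and 7.37% in silique. Equal numbers of peaks kept 553 of the 888 regions, 50% coverage 660, 1 minimum width 664, and −log10 q of 10 or more 728. Of the 26 named regions, 17 were kept with 50% coverage, among them none of the 6 most unequal between silique and seedling, and 17 with equal numbers of peaks. Of 512 recomputed ratios of named regions 505 moved by less than their spread, and no region called silique-higher or seedling-higher changed sign. Many of the 512 could not move, since H3K27me3 settings and the 500 bp margin do not enter a region's ratio. Regions no longer kept were not counted. The median over regions moved by more than its spread over library pairs (SD 0.019) with 50% coverage and with pileup divided by fragments. It also did so with 1 minimum width, with equal numbers of peaks and when any single H3K4me3 library was left out. The weak peaks limit what absence from flower bud can show.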
